A study of Mus musculus with 6 samples.

Results

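The genes described here write, remove or read methyl groups on lysine 20 of histone H4. They are Setd8 (current symbol Kmt5a), Suv420h1 (Kmt5b), Suv420h2 (Kmt5c), Phf8, L3mbtl1, L3mbtl2, L3mbtl3, Trp53bp1 and Orc1. The choice was made by gene name: every non-control probe that the array files name for 1 of these 9 genes was taken, 18 probes of 55681 on the array. The rule for picking probes uses names alone. Of the 18 probes, 12 passed the filter on dim probes and stand for 7 genes, and the other 6 probes hold all those of L3mbtl1 and L3mbtl3.

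The cells, G1E-ER-GATA-1, are mouse red cell progenitors that lack their own Gata1 and carry a fusion of GATA-1 to an estrogen receptor fragment, through which β-estradiol starts maturation. All cells of both groups carried that fusion and were exposed to β-estradiol for 24 h. The groups were SetD8 siRNA (3 arrays) and control siRNA, a non-targeting siRNA (3 arrays), each given at 0 h and 24 h, with RNA taken at 48 h. Nothing in the labels tells whether a group's arrays are of separate cultures, and a p-value here covers the spread between the arrays alone, possibly a technical one.

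Setd8, also called PR-Set7, puts the first methyl group on lysine 20 of H4. Suv420h1 and Suv420h2 extend that mark to its dimethylated and trimethylated forms, and Phf8 takes the single methyl group off again. L3mbtl1 and its relatives bind methylated histone tails through MBT repeats, 53BP1 (Trp53bp1) binds the dimethylated mark at DNA breaks through its tandem Tudor domain, and Orc1, a subunit of the origin recognition complex, binds it through its BAH domain. In mouse red cell precursors Setd8 is required for survival and maturation.

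The probes are 60-base oligonucleotides, each present as 1 spot per array. A probe of each of 5 genes, from the writers, the eraser and the readers, is shown, because what each array value reports is hybridisation to exactly these bases. Each has at least 1 reading frame without a stop codon; the brighter Setd8 probe and Phf8 probe 1, used in the within-array ratios, have none and are given by position. They are written 5′ to 3′ in lower case throughout. Positions are on mm9, the build named in the file headers.

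Setd8 dimmer probe, chr5:124897355-124900704, plus strand: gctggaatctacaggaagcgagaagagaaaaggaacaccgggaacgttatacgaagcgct
Suv420h1 probe 2, chr19:3815371-3815430, plus strand: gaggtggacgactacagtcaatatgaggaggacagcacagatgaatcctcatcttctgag
Phf8 probe 2, chrX:148002226-148002285, plus strand: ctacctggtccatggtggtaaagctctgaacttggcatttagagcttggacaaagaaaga
Trp53bp1 probe 1, chr2:121024792-121024851, minus strand: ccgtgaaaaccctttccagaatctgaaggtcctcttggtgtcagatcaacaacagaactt
Orc1 probe, chr4:108284772-108285679, plus strand: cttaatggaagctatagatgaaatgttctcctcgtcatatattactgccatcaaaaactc

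The Setd8 dimmer probe spans 3350 bases of genome for its 60 bases of transcript, and the Orc1 probe spans 908, so both cross at least 1 intron and report spliced RNA. The other 3 lie within single exons of the transcripts the files assign them to. The brighter Setd8 probe (chr5:124911883-124911942, plus strand) lies further along the same transcript, at base 2304, against base 334 for the dimmer one, and has a stop codon in each reading frame.

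The arrays differed among the controls more than among the SetD8 siRNA arrays. Between 60.3% and 68.6% of the 59305 non-control spots were well above background on SetD8 siRNA arrays, against 40.2% to 82.5% on control siRNA arrays. Arrays correlated across tested probes at 0.977 to 0.982 within the SetD8 siRNA group and at 0.848 to 0.955 within the control siRNA group. SetD8 replicates 1 and 2 and control replicate 1 shared slide 1, SetD8 replicate 3 and control replicate 3 shared slide 3, and control replicate 2 was alone on slide 2. All 8 erythroid markers looked up, from globin genes to Klf1, were well above background on all 6 arrays. Of 10 markers of other blood and stromal cells 5 were so too. No marker on either list passed the test, and 3 had an unadjusted p under 0.05 after normexp and quantile normalization. Slc4a1, the anion exchanger of the red cell membrane, had 2402, 1246 and 4485 intensity units on SetD8 siRNA arrays, against 6287, 7847 and 7362 on control siRNA arrays, which do not overlap (difference -1.19, adjusted p = 0.314 by limma). Hbb-b1, an adult β-globin with a near-identical copy, had 24576, 15568 and 59087 units on SetD8 siRNA arrays. Control siRNA arrays had 12723, 12864 and 19718 units, and the groups overlapped in intensity. They overlapped too after normexp and quantile normalization (difference 1.20, adjusted p = 0.453 by limma). Relative to each array's 75th percentile the Hbb-b1 groups were separate, at 7.44 ± 0.89 against 6.33 ± 0.08 (log2, SD, 3 arrays each). The macrophage receptor Csf1r had 764, 667 and 868 units on SetD8 siRNA arrays, against 472, 210.4 and 689 on control siRNA arrays. These overlap in intensity, but relative to each array's 75th percentile the Csf1r groups were separate. After normexp and quantile normalization they were separate too, as for 2372 of 22119 genes and regions in that direction (difference 0.97, adjusted p = 0.393 by limma). The summed intensity ran from 313687 to 475614 on SetD8 siRNA arrays against 405680 to 556607 on control siRNA arrays for the erythroid list, of which Hba-a1 made up the most. For the other list it ran from 9520 to 22312 on SetD8 siRNA arrays against 10252 to 17563 on control siRNA arrays, and the part of either list in the results was not tested.

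Values are given on 2 scales. The first, set for the comparison, is the log2 processed signal minus the array's own 75th percentile, in short the 75th percentile scale. The second is the log2 signal after normexp background correction, which models background as noise added to signal, and quantile normalization, which gives all arrays the same distribution. Differences are SetD8 siRNA minus control siRNA, tested with limma across all 30971 probes that were well above background on every array of at least 1 group, with Benjamini-Hochberg adjustment and a threshold of 0.05. On the 75th percentile scale limma called 0 probes higher and 0 lower, with 772 (2.49%) at an unadjusted p under 0.05. On the second scale it called 94 higher (0.304%) and 6 lower (0.0194%), with 3183 (10.3%) at an unadjusted p under 0.05. With 3 arrays a group, precision is limited by their number.

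The targeted writer, Setd8, was lower on every SetD8 siRNA array than on every control siRNA array, on both probes. On the brighter probe the processed intensity was 900.2, 425 and 592 units on SetD8 siRNA replicates 1, 2 and 3, against 3402, 4694 and 2156 on control siRNA replicates 1, 2 and 3. The SetD8 siRNA values lay close together relative to the gap, and control replicate 3 was the lowest of the controls. On the dimmer probe the intensity was 272, 157 and 334 units on SetD8 siRNA arrays, against 695, 605 and 842 on control siRNA arrays. Here control replicate 3 was the highest control, so in intensity the order of the controls was turned round between probes of the same gene. On the 75th percentile scale control replicate 3 was the lowest control on both probes (3.14 on the brighter and 1.79 on the dimmer).

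After normexp and quantile normalization the brighter Setd8 probe stood at 9.58, 9.26 and 9.24 on SetD8 siRNA arrays, against 11.49, 11.57 and 11.23 on control siRNA arrays. The difference was -2.07 ± 0.16 (SE, log2), 4.2-fold lower, with an adjusted p of 0.0172 by limma and a 95% interval of -2.46 to -1.69. It was 1 of the 6 probes called lower in that fit. On the 75th percentile scale the same probe averaged 1.91 ± 0.14 on SetD8 siRNA arrays and 4.14 ± 0.92 on control siRNA arrays (SD, n = 3 arrays each). That difference, -2.24 with a 95% interval of -3.45 to -1.03, had an adjusted p of 0.931 by limma, so the call depended on the scale. The exact two-sided permutation p over arrays was 0.1 on each scale, the smallest that 3 arrays against 3 allow.

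The dimmer Setd8 probe had a smaller difference and did not pass on either scale. After normexp and quantile normalization it stood at 8.21, 8.25 and 8.72 on SetD8 siRNA arrays, against 9.53, 9.13 and 9.90 on control siRNA arrays. The groups did not overlap, as was so for 8.19% of all tested probes in that direction on this scale. Its difference was -1.13 ± 0.24 (SE, log2), 2.18-fold lower (adjusted p = 0.146 by limma, 95% interval -1.70 to -0.55). The gap between the probes was itself not resolved: the within-array log2 ratio of brighter over dimmer was 1.73, 1.44 and 0.83 on SetD8 siRNA arrays against 2.29, 2.95 and 1.36 on control siRNA arrays, which overlap (difference -0.87, exact permutation p = 0.3).

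**Figure D1:**
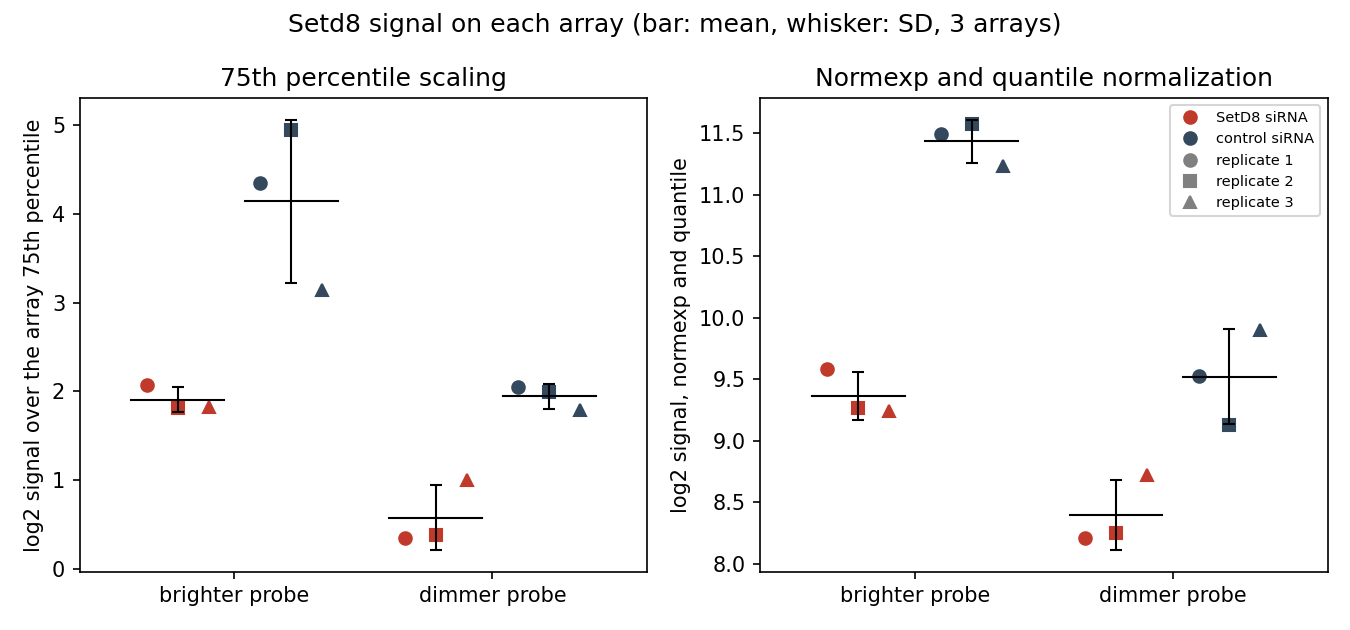
Setd8 signal on the 3 SetD8 siRNA arrays (red) and the 3 control siRNA arrays (dark blue) for the brighter and the dimmer probe, as log2 over the array's 75th percentile (left) and as log2 after normexp and quantile normalization (right). Bars are means and whiskers SD; on the brighter probe the SetD8 siRNA arrays sit at 9.24 to 9.58 in the right panel and the control siRNA arrays at 11.23 to 11.57.

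Within slides the brighter Setd8 probe differed by -2.07 on slide 1 and by -1.99 on slide 3 after normexp and quantile normalization. On the 75th percentile scale the slides were less alike, with -2.40 on slide 1 and -1.32 on slide 3. With slide as a block the difference after normexp and quantile normalization was -2.04 and missed the threshold (adjusted p = 0.0722 by limma). On the 75th percentile scale it was -1.93 and passed (adjusted p = 0.0296 by limma). In that last fit limma gave all 12 tested probes the same SE, 0.50. Its p therefore rests on a variance shared between probes and not on the spread of this probe. After normexp and quantile normalization the call also needed particular arrays. It held without control replicate 2 (adjusted p = 0.0231) or control replicate 3 (0.0131), and was lost without control replicate 1 (0.142), SetD8 replicate 1 (0.0976), SetD8 replicate 2 (0.171) or SetD8 replicate 3 (0.138) by limma, with differences of -2.18 to -2 over these 6 fits.

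A ratio of probes on the same array cancels any scaling of the whole array. The brighter Setd8 probe was divided by each of the 10 other tested probes in turn. All 10 ratios were lower on every SetD8 siRNA array than on every control siRNA array, by -2.46 (over Suv420h1 probe 2) to -1.53 (over Orc1) on the log2 scale. These ratios share a numerator and are not independent, and each had an exact permutation p of 0.1, which stays 0.1 after adjustment over the 10.

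The control siRNA arrays spread least in the ratios over Phf8 probe 1 (SD 0.08), Trp53bp1 (SD 0.10) and Orc1 (SD 0.14). The log2 ratio of Setd8 over Phf8 probe 1 was -0.66, -0.81 and -1.05 on SetD8 siRNA arrays, against 1.19, 1.29 and 1.15 on control siRNA arrays, a 4.15-fold lower ratio. Over Trp53bp1 it was 1.58, 1.46 and 1.46 on SetD8 siRNA arrays, against 3.65, 3.69 and 3.51 on control siRNA arrays, 4.34-fold lower. Over Orc1 it was 1.84, 1.80 and 2.06 on SetD8 siRNA arrays, against 3.42, 3.29 and 3.57 on control siRNA arrays, 2.89-fold lower. Not every ratio narrowed the controls: their SD was 1.02 over Suv420h1 probe 2, 0.88 over L3mbtl2 and 0.75 over Phf8 probe 2, against 0.92 for Setd8 alone on the 75th percentile scale. For the dimmer Setd8 probe 9 of 10 ratios did not overlap; the ratio over Orc1 did (difference -0.66, exact permutation p = 0.5).

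**Figure D2:**
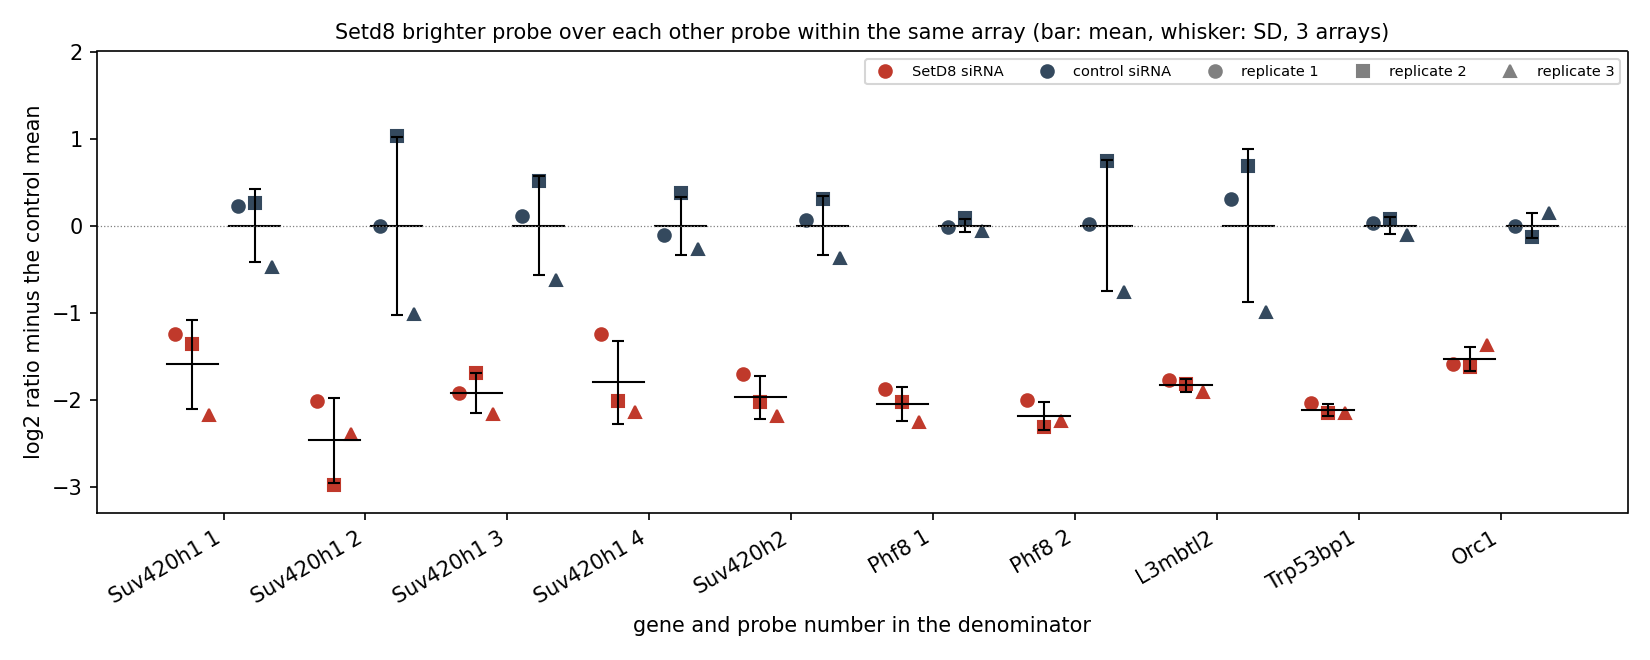
Log2 ratio of the brighter Setd8 probe over each of the 10 other tested probes on the same array, minus the control mean of that ratio, for 3 SetD8 siRNA arrays (red) and 3 control siRNA arrays (dark blue), with mean bars and SD whiskers. No SetD8 siRNA array reaches a control siRNA array for any denominator, and the controls lie closest together over Phf8 probe 1, Trp53bp1 and Orc1.

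None of the other genes passed the test. Of the 10 tested probes of the 6 other measured genes, 0 were past the threshold on the 75th percentile scale and 0 after normexp and quantile normalization, by limma, with 0 and 1 at an unadjusted p under 0.05. The difference was negative for 9 of 10 probes on each scale, where 44% and 47.6% of all tested probes were negative. That background includes dimmer probes, whereas these 10 were well above background on all 6 arrays. Over the 21039 probes detected on all 6 arrays the median difference was -0.106 on the 75th percentile scale, against 0.092 over all tested probes. After normexp and quantile normalization these medians were -0.029 and 0.014. The share of negative differences among probes detected throughout was not counted. A missed threshold does not show that these genes were unaltered. The intervals below, after normexp and quantile normalization unless stated, give what size of difference the arrays left possible on that scale. On the 75th percentile scale they were wider. There they ran from -2.05 to 0.63 for Orc1, -1.34 to 0.97 for Phf8 probe 1, -1.22 to 0.69 for Suv420h2 and -1.25 to 1.00 for Trp53bp1.

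Suv420h1, the main dimethylating enzyme, has 4 tested probes on chromosome 19. Probe 1 (chr19:3808776-3808835, plus strand) stood at 8.50, 8.42 and 9.09 on SetD8 siRNA arrays, against 9.07, 9.17 and 9.19 on control siRNA arrays, after normexp and quantile normalization. SetD8 replicates 1 and 2 lay below all controls and replicate 3 among them. The difference of -0.48 (95% interval -0.95 to -0.0005) was the 1 with an unadjusted p under 0.05, and its adjusted p was 0.486 by limma. Probe 2, printed above, stood at 8.31, 8.87 and 8.35 on SetD8 siRNA arrays, against 8.36, 7.995 and 8.64 on control siRNA arrays. It was the only positive difference among the 12 tested probes on both scales, 0.18 (95% interval -0.37 to 0.72, adjusted p = 0.878 by limma) on this one. Probe 3 (chr19:3816303-3816362), assigned to the same transcripts as probe 2, and probe 4 (chr19:3806255-3806314), assigned to others, had differences of -0.18 (interval -0.68 to 0.32) and -0.26 (interval -0.91 to 0.40). Leaving out 1 array at a time moved these to -0.38 to -0.05 for probe 3 and to -0.56 to -0.08 for probe 4, the most negative of each without control replicate 3 and the least negative without control replicate 2. Ratios among these 4 probes, 6 pairs in all, overlapped between groups in each case, so no shift between Suv420h1 transcripts was resolved (smallest exact permutation p = 0.2, 0.6 after adjustment over the 8 same-gene pairs tested).

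Suv420h2, the related enzyme of trimethylation at heterochromatin, has 1 probe (chr7:4699030-4699089, plus strand). Its intensity was 63347, 37387 and 58453 units on SetD8 siRNA arrays, against 70365, 82100 and 60129 on control siRNA arrays, and no spot was saturated. The raw values were lower on SetD8 siRNA arrays except for an overlap of SetD8 replicate 1 with control replicate 3. After normexp and quantile normalization they were 15.87, 15.78 and 15.83 on SetD8 siRNA arrays, against 15.98, 15.76 and 15.88 on control siRNA arrays, and the groups overlapped. The difference was -0.04, with the narrowest 95% interval of the 12 probes, -0.34 to 0.25 (adjusted p = 0.953 by limma).

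Phf8, the demethylase, lies on the X chromosome and has 4 probes, 2 of them tested. Probe 1 (chrX:148068241-148068300, plus strand) stood at 10.28, 10.18 and 10.34 on SetD8 siRNA arrays, against 10.43, 10.39 and 10.10 on control siRNA arrays. The SetD8 siRNA arrays lay within the range of the controls, with a difference of -0.04 (95% interval -0.38 to 0.30, adjusted p = 0.964 by limma). Probe 2, printed above, had a difference of -0.14 (interval -0.62 to 0.33), and the remaining pair was well above background on 2 SetD8 siRNA and 2 control siRNA arrays for one probe and on 1 and 2 for the other. For Phf8 probe 1 the sign differed between slides, -0.20 within slide 1 and 0.24 within slide 3.

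**Figure D3:**
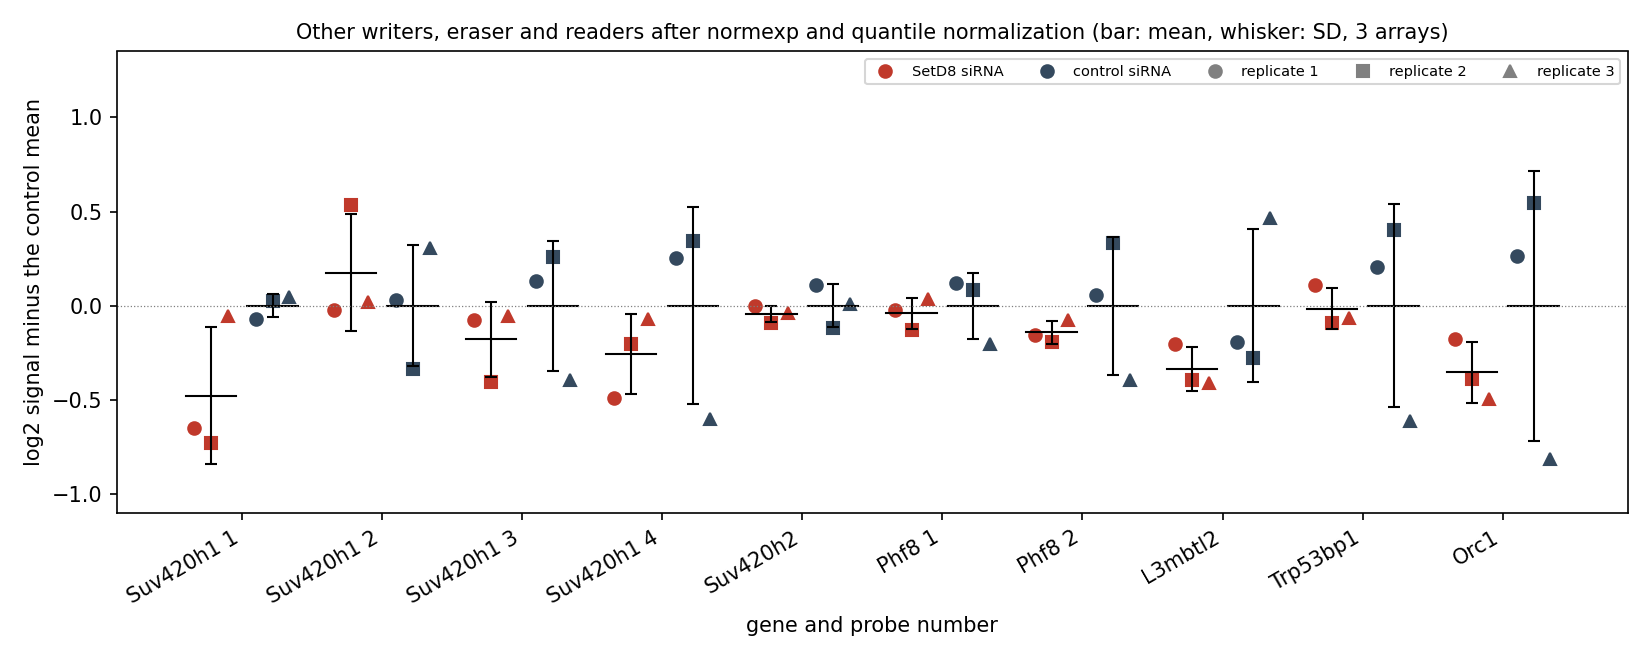
Log2 signal after normexp and quantile normalization of the 10 tested probes other than Setd8, minus each probe's control mean, on 3 SetD8 siRNA arrays (red) and 3 control siRNA arrays (dark blue), with mean bars and SD whiskers. The groups overlap for all 10, and the controls have the larger SD for 9 of 10, all but Suv420h1 probe 1.

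Of L3mbtl1, L3mbtl2 and L3mbtl3 only L3mbtl2, a subunit of a Polycomb complex, was measured on all arrays (chr15:81517795-81517854, plus strand). On the 75th percentile scale it stood at 1.28, 1.08 and 1.18 on SetD8 siRNA arrays, against 1.48, 1.71 and 1.57 on control siRNA arrays. These groups did not overlap, as for 3.01% of all tested probes in that direction, and the difference was -0.40 (95% interval -1.15 to 0.34, adjusted p = 0.931 by limma). After normexp and quantile normalization it stood at 9.004, 8.82 and 8.80 on SetD8 siRNA arrays, against 9.02, 8.93 and 9.67 on control siRNA arrays, and the groups overlapped, with control replicate 3 far above the rest. The difference on that scale was -0.34 (95% interval -0.86 to 0.19), and -0.10 without control replicate 3. L3mbtl1 and L3mbtl3 could not be tested. The pair of L3mbtl1 probes (chr2:162800199-162800258 and chr2:162792288-162792347) was well above background on 0 SetD8 siRNA arrays, against 2 control siRNA arrays for the first and 1 for the second, with 3.1 to 12.2 units on SetD8 siRNA arrays against 4.31 to 23.7 on control siRNA arrays for the first. The L3mbtl3 probe (chr10:25995276-25995335, minus strand) was well above background on no array of either group. No fold is given for them.

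Trp53bp1 encodes 53BP1, which channels the repair of DNA breaks. Its tested probe stood at 8.22, 8.02 and 8.05 on SetD8 siRNA arrays, against 8.32, 8.52 and 7.50 on control siRNA arrays. The SetD8 siRNA arrays all lay inside the range of the controls. The difference was -0.01 (95% interval -0.66 to 0.63, adjusted p = 0.994 by limma), negative within slide 1 (-0.20) and positive within slide 3 (0.55). Its other probe (chr2:121022706-121022765, minus strand) was well above background on 1 array of each group.

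Orc1, the reader at replication origins, stood at 8.08, 7.87 and 7.76 on SetD8 siRNA arrays, against 8.52, 8.80 and 7.45 on control siRNA arrays. SetD8 siRNA arrays lay below control replicates 1 and 2 and above control replicate 3. The difference was -0.35 with the widest 95% interval of the 12 probes, -1.18 to 0.47 (adjusted p = 0.832 by limma). Without control replicate 3 it was -0.76, and without control replicate 2 it was -0.08.

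**Figure D4:**
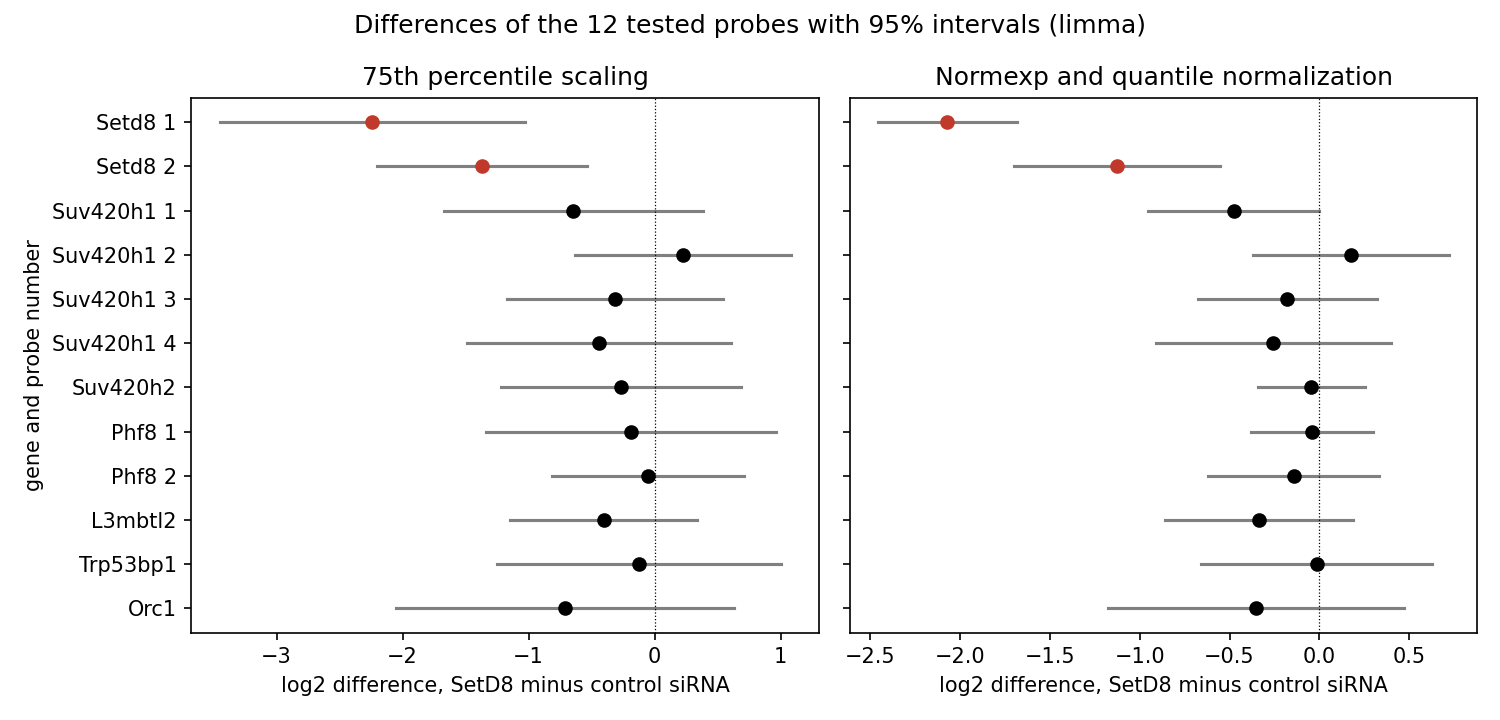
Log2 differences, SetD8 siRNA minus control siRNA, of the 12 tested probes with 95% intervals from limma, on the 75th percentile scale (left) and after normexp and quantile normalization (right); Setd8 is in red. The intervals of both Setd8 probes lie below 0 in both panels, and in the right panel those of the other probes range from -1.18 at the lowest to 0.72 at the highest.

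The genes that act beside these writers and readers were taken as 6 lists from textbook knowledge, with 1 probe a gene. Of the genes in these lists none passed the test on either scale. Over all 22119 genes and regions the background was 0.357% called higher and 0.0226% called lower after normexp and quantile normalization, and 0 on the 75th percentile scale. After normexp and quantile normalization 44.8% of all genes and regions had a negative difference and the median difference was 0.03, against 0.11 on the 75th percentile scale. Over the 21039 probes detected on all 6 arrays the medians were -0.03 and -0.11, so probes detected throughout leaned lower than that background. No share of negative differences among such probes was counted to set beside the list counts. In a population of cells a transcript held by fewer cells and less of it in each cell cannot be told apart.

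Other readers of the lysine 20 mark and of its unmethylated state were negative for 5 of 7 measured genes after normexp and quantile normalization, with a median of -0.30. The condensin II subunits Ncapd3 and Ncapg2, which bind the monomethylated mark in mitosis, had the smallest p of the list. Ncapd3 stood at 9.96, 9.74 and 10.07 on SetD8 siRNA arrays, against 10.78, 10.80 and 10.64 on control siRNA arrays, which do not overlap, as for 8.53% of all genes and regions in that direction. Its difference was -0.81 ± 0.14 (SE, adjusted p = 0.091 by limma). Ncapg2 had a difference of -0.65 ± 0.15 (adjusted p = 0.168) and Bard1, a reader of unmethylated lysine 20 on new chromatin, one of -0.55 ± 0.15 (adjusted p = 0.234). The other tested probes of Bard1, dimmer and not used for the list, had -0.14 and -0.28, and that of Ncapd3 had -0.89. Among 5 other enzymes reported to act on lysine 20 all 5 were negative, with a median of -0.20. The demethylase Kdm7a had the largest of these differences (-0.47 ± 0.18, adjusted p = 0.419). Its other tested probe, dimmer and not used for the list, went the other way (0.06).

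A list of 9 genes of ubiquitin-dependent turnover held parts of the ligase CRL4-Cdt2, which recognises Setd8 on the sliding clamp PCNA in S phase (Dtl, Ddb1, Cul4a, Cul4b and Pcna). It also held Skp2 and Cul1 of the SCF ligase and Fzr1 and Cdc20, activators of the anaphase-promoting complex. The difference was negative for 8 of 9, with a median of -0.28, and positive for Ddb1 (0.20, adjusted p = 0.7504 by limma). Pcna stood at 12.91, 12.64 and 12.73 on SetD8 siRNA arrays, against 13.51, 13.68 and 13.28 on control siRNA arrays. Dtl, which encodes Cdt2, stood at 9.61, 9.49 and 9.72 on SetD8 siRNA arrays, against 10.34, 10.49 and 10.17 on control siRNA arrays. Both had separate groups and a difference of -0.73, with adjusted p of 0.146 for Pcna and 0.118 for Dtl by limma. The other tested probe of Dtl, dimmer and not used for the list, had -0.07 (adjusted p = 0.973 by limma). On the 75th percentile scale that probe had 0.55, and it was well above background on 3 SetD8 siRNA arrays and 1 control siRNA array. Cul4a, the scaffold of the ligase, had -0.30 (adjusted p = 0.509), and its other tested probe, dimmer and not used for the list, had 0.14.

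Partners of Orc1 in origin recognition and licensing were negative for 8 of 9 genes, with a median of -0.27. Orc6, another subunit of the origin recognition complex, had a difference of -0.58 ± 0.17 (adjusted p = 0.281 by limma), the licensing factor Cdt1 one of -0.49 ± 0.13 (adjusted p = 0.239) and its inhibitor Gmnn one of -0.56 ± 0.25 (adjusted p = 0.526). Partners of 53BP1 were negative for 7 of 8 genes, with a median of -0.23. Rif1, which acts with 53BP1 to protect DNA ends, had -0.65 ± 0.19 (adjusted p = 0.277), Mdc1, a scaffold at breaks, -0.34 ± 0.13 (adjusted p = 0.435) and Dynll1, a light chain that 53BP1 binds, 0.38 ± 0.14 (adjusted p = 0.392). Dynll1 was well above background on 3 SetD8 siRNA arrays and 2 control siRNA arrays, so it entered the test through the group in which it is higher. The Polycomb complex that holds L3mbtl2 was negative for 12 of 13 genes, with a median of -0.29. Its subunits Rybp (-0.53 ± 0.13, adjusted p = 0.206), Wdr5 (-0.43 ± 0.11, adjusted p = 0.234) and Yaf2 (-0.49 ± 0.15, adjusted p = 0.303) had the smallest p of that list.

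Each of the 18 list genes with the smallest p, 3 a list, overlapped between groups on the 75th percentile scale. They were picked by their p after normexp and quantile normalization. On that scale all but Gmnn and Rsbn1, the latter of the enzyme list, had separate groups, which follows from the choice. With slide as a block the list medians lay nearer to 0 on both scales, between -0.27 and -0.07 after normexp and quantile normalization.

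**Figure D5:**
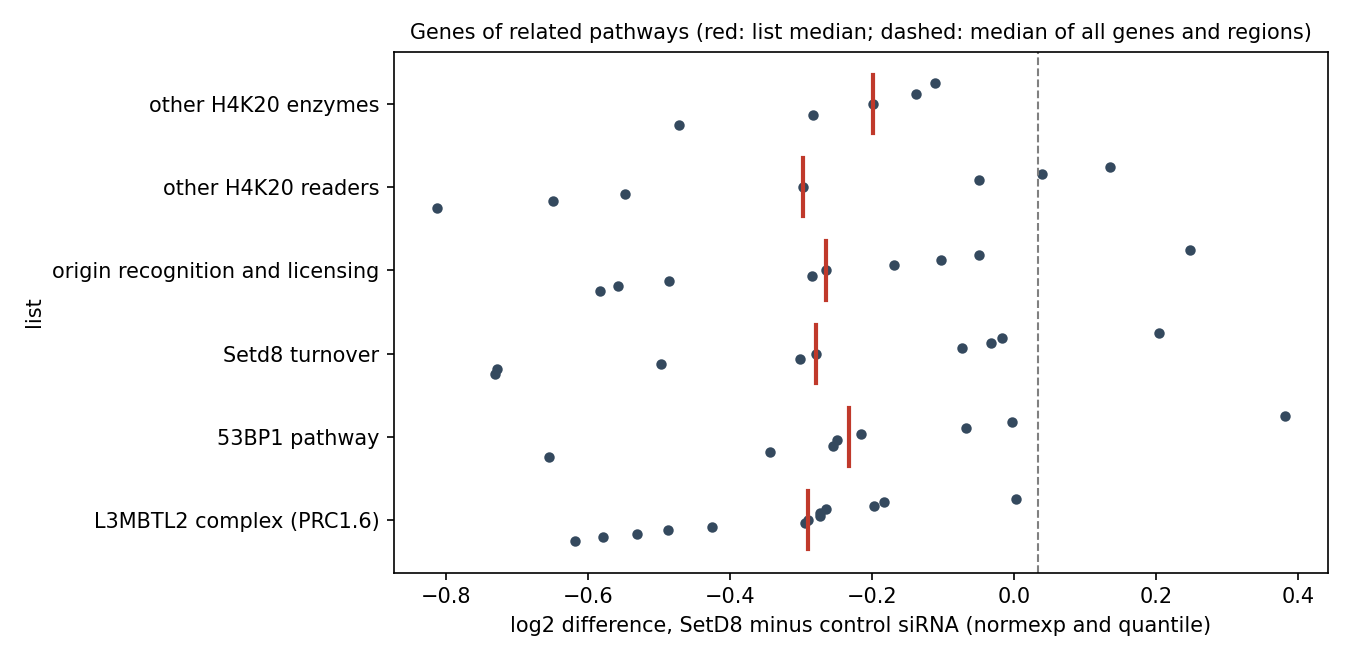
Log2 differences after normexp and quantile normalization, SetD8 siRNA minus control siRNA, of the measured genes (dots) of 6 related lists, with each list's median in red and the median of all 22119 genes and regions, 0.03, dashed. List medians lie between -0.30 and -0.20, and Ncapd3 is the lowest dot at -0.81.

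The genes whose values over the 6 arrays were most like those of the brighter Setd8 probe were looked up among 10737 genes well above background on all arrays, after normexp and quantile normalization. The best Pearson correlations were with Anp32e (0.999), Wrnip1, Lrch4, Tacc3 and Psat1 (0.993), all lower by 0.33 to 0.54 on the log2 scale. Anp32e, a chaperone of the histone variant H2A.Z, stood at 9.80, 9.74 and 9.70 on SetD8 siRNA arrays against 10.30, 10.34 and 10.23 on control siRNA arrays. Its adjusted p was 0.151 by limma, and none of these 5 passed the test. The most negative correlations were with Shisa5, Tmem184a (both -0.998), Cpt1c, Mgmt and Rela (-0.997). Tmem184a was 2.00 higher (adjusted p = 0.0113), Mgmt, a DNA repair enzyme, 1.53 higher (adjusted p = 0.0208), Cpt1c 1.37 higher (adjusted p = 0.0243) and Shisa5 1.29 higher (adjusted p = 0.0242) on the log2 scale, by limma. With slide as a block on this scale no probe was called, so these 4 calls were lost, and on the 75th percentile scale none was called. Rela, the p65 subunit of NF-κB, differed by 0.45 (adjusted p = 0.207). These correlations describe 6 arrays in 2 groups, and on the 75th percentile scale the correlation was 0.90 for Anp32e, -0.99 for Cpt1c and 0.14 for Rela.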

How the data were processed

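RNA of 6 samples was hybridised to 1-colour Cy3 Agilent arrays. The authors deposited linear spot intensity from the scanner. Per the file headers it came from Feature Extraction 10.7.3.1, which detrended signals and put surrogate values near background. The authors' series matrix holds the same intensity: 100% of values matched within 0.006. The submitters' processing notes name limma; further steps are not given in the sources used here.

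Control spots and outlier spots (139 to 176 per array) were left out and spots of a probe averaged. Each kept probe of the 9 genes is 1 spot, with an error of 10.0% to 12.5% of the signal as estimated by Feature Extraction. Log2 processed signal minus the 75th percentile was the main setting; normexp (offset 50) with quantile normalization was the main alternative. Probes well above background on each array of at least 1 group were tested. Tests used limma 3.58.1 (lmFit and eBayes) in R 4.3.3, checked on simulated data; tables and figures used Python 3.11.15, pandas 2.3.3, numpy 2.4.6 and matplotlib 3.10.9. A gene in a list is its kept probe with the highest mean.

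The genes and lists were chosen with earlier results of these data known. Named were all probes of the 9 genes, in each list any gene past the threshold and the 3 with the smallest p after normexp and quantile normalization, and the 5 genes most and least correlated with Setd8. Markers and the values without named arrays were given besides. Alternatives were other background corrections, scalings and filters, slide or replicate number as a block, array weights, the series matrix, 1 probe a gene and leaving out each array.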

Additional observations from a re-analysis of the deposited data

How the results depend on the processing

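The count of called probes moved most with the processing. Against 0 higher and 0 lower at the 75th percentile scaling, limma called 94 and 6 after normexp and quantile normalization, 23 and 1 with normexp and the 75th percentile, 112 and 10 over probes detected on all 6 arrays, 109 and 18 with slide as a block (0 and 0 with that block after normexp and quantile normalization), and 2053 and 1871 with array weights (gene-by-gene method, since the REML method did not converge), which ran from 0.143 for control replicate 2 to 9.71 for control replicate 1. Chosen after seeing the data, 1 probe a gene and detection on all 6 arrays, both after normexp and quantile normalization, gave 110 and 10, and 291 and 76. Leaving out each array gave 0 to 97 higher and 0 to 6 lower, and 0 to 101 (87 without control replicate 2) and 0 to 4 after normexp and quantile normalization. The brighter Setd8 probe passed the threshold at -2.07 after normexp and quantile normalization (also with either added choice), -2.24 with normexp and the 75th percentile or detection on all 6 arrays, -1.93 with slide as a block and -2.42 with array weights. The dimmer one passed at -1.50 with array weights alone. On the 75th percentile scale limma gave all 12 tested probes the same SE with slide as a block (0.50) and with detection on all 6 arrays (0.41). The p-values of those 2 fits rest on a variance shared between probes and not on each probe's own spread. Leaving out each array gave -2.74 to -1.84 and -1.58 to -1.25 for the 2 probes, and -2.18 to -2 (-2.17 without control replicate 3) and -1.32 to -0.94 after normexp and quantile normalization. Of 272 values for the other 10 probes, 250 kept direction and side, 21 changed sign and 1 passed (Orc1 with array weights). Signs changed at -0.27 for Suv420h1 probe 2 with median scaling, which moved the median of all probes to -0.41, at 0.11 for Phf8 probe 1 with slide as a block, and at 0.08 for Phf8 probe 2 with the percentile over detected probes and 0 with slide as a block after normexp and quantile normalization. For Trp53bp1 they did at 0.12 with quantile normalization, 0.01 with the percentile over detected probes, and 0.16 and 0.12 with slide as a block on the 2 scales. Leaving out each array gave -0.66 to 0.17 for Phf8 probe 1, -0.17 to 0.04 for Phf8 probe 2 and -0.57 to 0.24 for Trp53bp1, and after normexp and quantile normalization -0.14 to 0.02, -0.34 to 0.03 and -0.32 to 0.19 (0.09 without control replicate 1), with 0 to 0.33 for Suv420h1 probe 2 and -0.10 to 0.01 for Suv420h2. The cause of these changes was not tested. With the replicate number as a block limma called 0 probes on either scale, and the brighter Setd8 probe stayed at -2.24 (adjusted p = 0.996) and -2.07 (adjusted p = 0.291). On the 75th percentile scale the deviations of same-numbered arrays from their group means correlated at 0.234, -0.276 and -0.418. With 3 arrays a group such deviations depend on each other, so whether the numbers pair the samples cannot be told.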
